A study of Mus musculus with 14 samples.

Results

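A set of 10 transcription factor genes of the naive state of pluripotency is described here across mouse embryonic stem cell (ESC) cultures: Esrrb, Tfcp2l1, Nr5a2, Nr0b1, Tbx3, Klf2, Klf4, Klf5, Prdm14 and Spic. They were named one by one in the rule that defines the set, without a measured threshold but with earlier results of these data known. All 10 were found by symbol among the 37991 Ensembl genes of the media libraries, all 10 passed the filter on low counts that left 16033 genes, and all 10 were found among the 37620 genes of the raw count libraries.

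All 14 libraries came from C57BL/6 dual reporter ESCs, carrying an mCherry reporter for mir-290 and an eGFP reporter for mir-302. The descriptions do not say whether the line is a single clone. In the media experiment the cells were seeded sparsely and kept for 5 days in 1 of 5 media, with 2 libraries per medium. FBS/LIF holds serum and leukemia inhibitory factor (LIF), a cytokine that acts through STAT3. Vitamin C (500 µM) was added in VitC/LIF, L-proline in L-Pro/LIF (the labels of these libraries give no dose), and inhibitors of the kinases MEK and GSK3 in 2i/LIF, all 3 listed as additions to FBS/LIF. F/A is the serum-free medium N2B27 with 20 ng/ml activin A, 12 ng/ml bFGF and no LIF, the factors used to keep epiblast-like stem cells. The second experiment holds 4 single libraries of cells described as positive for both reporters: t0 (day 0, serum, LIF and 100 µM vitamin C), L-Pro day 5 (serum, LIF and 1 mM L-proline), F/A day 3 and F/A day 5 (20 ng/ml activin A, bFGF dose not stated). For the L-Pro day 5 and F/A libraries of this experiment the labels give no vitamin C dose. RNA was extracted by different methods in the 2 experiments, so values were never pooled across them. Whether both libraries of a medium are separate cultures is not in the labels, so p-values measure only the spread between these libraries, which may be technical.

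As background, naive ESCs correspond to the epiblast of the blastocyst, and primed cells to the epiblast after implantation. Oct4 and Sox2 are present in both states, while the factors described here form a partly redundant network that holds the naive state. LIF feeds the network through STAT3 and its targets Tfcp2l1 and Klf4, and inhibition of GSK3 relieves the repressor TCF3 at genes such as Esrrb. The MEK and ERK kinase pathway works against the network, and PRDM14 represses FGF receptor and DNA methyltransferase genes.

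Depth ranged from 17778399 to 26354444 mapped fragments in 9 of the 10 media libraries, and F/A replicate 1 held 6937945. The raw count libraries held 33162689 to 39711061 counts. Of the defining ESC genes, Pou5f1 (Oct4) ranged from 416 to 997 counts scaled to library size (CPM) in the media libraries and from 781 to 1179 CPM in the raw count libraries, and Sall4 from 136 to 293 and from 163 to 384 CPM. Sox2 had the wider range, from 47.3 to 803 and from 34.5 to 498 CPM.

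The promoters of the members were read from RefSeq (GRCm38.p6), as the 250 bases before each transcription start. Windows matched 7 of the 10 members (9 windows, with 2 each for Esrrb and Nr5a2); Tbx3, Klf5 and Prdm14 had no entry. The 4 windows below were chosen because each holds the letters CCACCC or their reverse complement GGGTGG, a core of the sites that KLF factors bind. Capitals mark these letters, and each window is written 5′ to 3′ on the strand of its gene.

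Esrrb, first promoter, chr12:86360867-86361116, plus strand: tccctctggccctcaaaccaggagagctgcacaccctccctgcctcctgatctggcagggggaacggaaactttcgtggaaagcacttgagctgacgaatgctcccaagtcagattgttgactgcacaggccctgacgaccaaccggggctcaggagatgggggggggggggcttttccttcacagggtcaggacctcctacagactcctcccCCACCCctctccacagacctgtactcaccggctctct
Nr5a2, first promoter, chr1:136953631-136953880, minus strand: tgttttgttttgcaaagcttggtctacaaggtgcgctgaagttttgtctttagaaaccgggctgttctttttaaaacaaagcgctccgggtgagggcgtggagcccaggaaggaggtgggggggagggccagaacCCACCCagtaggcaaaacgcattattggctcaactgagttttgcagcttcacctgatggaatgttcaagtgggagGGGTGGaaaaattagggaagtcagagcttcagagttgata
Nr0b1, chrX:86191525-86191774, plus strand: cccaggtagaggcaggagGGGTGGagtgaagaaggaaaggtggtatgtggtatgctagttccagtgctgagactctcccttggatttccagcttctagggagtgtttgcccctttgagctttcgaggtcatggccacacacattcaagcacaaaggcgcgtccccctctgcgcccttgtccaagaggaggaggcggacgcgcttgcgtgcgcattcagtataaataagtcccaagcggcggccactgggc
Klf2, chr8:72318812-72319061, plus strand: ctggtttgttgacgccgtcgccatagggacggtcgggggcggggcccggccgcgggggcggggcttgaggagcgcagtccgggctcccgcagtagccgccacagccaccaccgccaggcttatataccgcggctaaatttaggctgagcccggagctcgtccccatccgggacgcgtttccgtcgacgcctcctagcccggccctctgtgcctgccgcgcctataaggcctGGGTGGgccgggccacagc

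The match lay 37 to 32 bases before the start in Esrrb, 19 to 14 bases before it in Klf2 and 232 to 227 bases before it in Nr0b1, and Nr5a2 held 2 matches, at 115 to 110 and 40 to 35 bases. The second Esrrb promoter held 1 match as well, at 103 to 98 bases, which made 5 of 9 windows and 4 of 7 members. The windows of Tfcp2l1, Klf4 and Spic and the second Nr5a2 promoter held none. Across the media, the RNA levels of Tfcp2l1 and Klf4 had r of 0.894 to 0.993 with those of the 4 genes (10 libraries). Those of Spic had r of 0.370 to 0.504 with the same 4 genes. A link between these letters and the levels was not tested. In all 32851 promoter windows of the same length, 28.1% held these letters on either strand. No window of the members held any of the other 5 motifs searched on both strands: TCAAGGTCA (ESRRB and NR5A2), TTCCNGGAA (STAT3), AGGTGTGA (TBX3), GGTCTCTAA (PRDM14) and GAGGAAGT (SPIC), which 0.387%, 0.913%, 1.12%, 0.24% and 2.44% of all windows held. A match describes letters in the window and not a bound site. The first promoter of Esrrb had 60.8% G and C, and those of Klf2 (71.2%) and Klf4 (74%) were the richest of the 9 windows, against a median of 52.4% over all windows.

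Levels in the 5 media are given first as TMM-scaled CPM in replicates 1 and 2, taken from estimated counts. In bulk RNA, fewer cells that express a gene and less RNA per cell cannot be told apart. The first 4 members described belong to the nuclear receptor and CP2 families. Esrrb (ENSMUSG00000021255), an orphan receptor that can replace other pluripotency factors in reprogramming, stood at 275 and 304 CPM in 2i/LIF, 170 and 231 in VitC/LIF, 143 and 183 in FBS/LIF, 5.78 and 7.94 in L-Pro/LIF, and 1.27 and 1.15 in F/A. Both L-Pro/LIF and both F/A values lay below every library of the other 3 media. Nr5a2 (ENSMUSG00000026398), the receptor LRH-1 that binds the Pou5f1 promoter, stood at 87.3 and 105 CPM in 2i/LIF, 56.2 and 59.5 in VitC/LIF, 42.2 and 47.0 in FBS/LIF, 3.62 and 3.56 in L-Pro/LIF, and 0.127 and 0.4 in F/A, the last from 1 and 8 fragments. None of its 5 media overlapped with another.

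Nr0b1 (ENSMUSG00000025056), known as Dax1, is an atypical receptor without a DNA-binding domain that acts as a co-regulator of other factors. It stood at 106 and 103 CPM in 2i/LIF, 114 and 112 in VitC/LIF, 114 and 105 in FBS/LIF, 6.19 and 5.49 in L-Pro/LIF, and 0.38 and 0.45 in F/A. FBS/LIF overlapped with both 2i/LIF and VitC/LIF, no neighbours among these 3 media differed by the test, and L-Pro/LIF and F/A formed 2 lower steps. Tfcp2l1 (ENSMUSG00000026380), a CP2 family factor downstream of LIF and STAT3, stood at 637 and 661 CPM in 2i/LIF, 184 and 215 in VitC/LIF, 106 and 151 in FBS/LIF, 16.1 and 18.6 in L-Pro/LIF, and 15.0 and 8.1 in F/A. Neighbours in this order that did not differ by the test were VitC/LIF and FBS/LIF (log2 difference 0.64, adjusted p = 0.41) and L-Pro/LIF and F/A (0.62, adjusted p = 0.14).

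The next 3 members are Krüppel-like zinc finger factors. Klf2 (ENSMUSG00000055148), whose protein is destabilised by ERK signalling, stood at 93.0 and 109 CPM in 2i/LIF, 69.4 and 71.9 in VitC/LIF, 54.1 and 58.7 in FBS/LIF, 7.25 and 7.43 in L-Pro/LIF, and 1.01 and 0.9 in F/A, with no overlap between media. Klf4 (ENSMUSG00000003032), a reprogramming factor and STAT3 target, stood at 123 and 140, 55.5 and 60.03, 49.6 and 57.1, 5.09 and 4.94, and 1.14 and 0.6 CPM in the same order of media. VitC/LIF and FBS/LIF overlapped, and every other pair of media was apart. Klf5 (ENSMUSG00000005148), needed for the self-renewal of ESCs, stood at 14.7 and 19.4, 12.9 and 19.6, 11.9 and 23.2, 6.05 and 10.2, and 13.2 and 5.25 CPM. The 2 FBS/LIF libraries alone enclosed every library of 2i/LIF and VitC/LIF, and no pair of neighbouring media differed by the test.

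The other 3 members come from different families. Tbx3 (ENSMUSG00000018604), a T-box factor that sustains Nanog, stood at 149 and 165 CPM in 2i/LIF, 50.0 and 67.3 in VitC/LIF, 16.6 and 23.8 in FBS/LIF, 2.94 and 4.11 in L-Pro/LIF, and 1.65 and 1.0 in F/A. It was the 1 member for which each neighbouring pair of media differed by the test. Prdm14 (ENSMUSG00000042414), a PR domain factor of the naive state and of germ cell precursors, stood at 42.3 and 38.5, 15.0 and 13.3, 8.04 and 8.86, and 1.05 and 1.03 CPM in the same order, and had 1 and 0 fragments in F/A. Spic (ENSMUSG00000004359), an Ets family factor known from macrophages and transcribed in naive ESCs, was the only member with F/A above FBS/LIF at the mean: 18.4 and 17.5 CPM in 2i/LIF, 2.26 and 1.62 in VitC/LIF, 1.25 and 1.83 in FBS/LIF, 0.229 and 0.435 in L-Pro/LIF, and 4.18 and 0.85 in F/A.

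**Figure D1:**
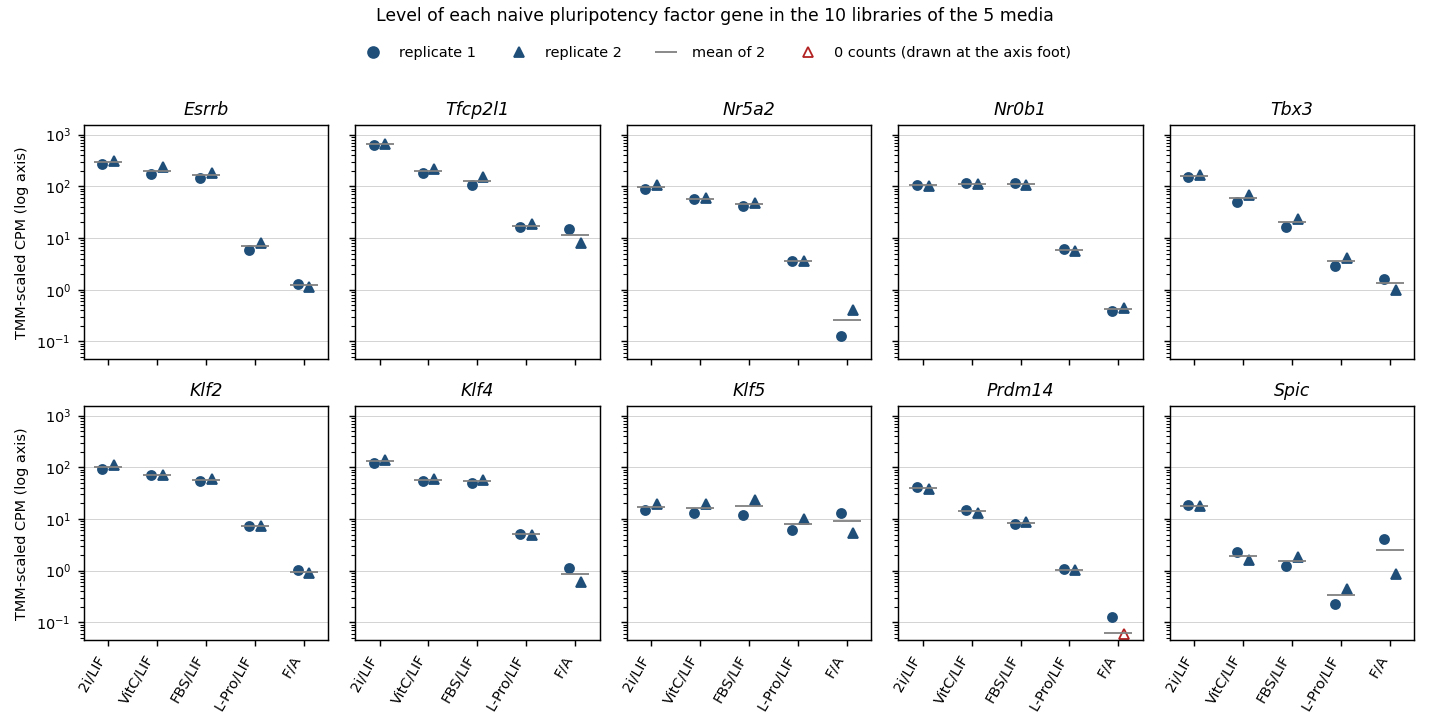
TMM-scaled CPM (log axis) of each of the 10 genes in the 2 libraries of each medium, with the mean of 2 as a bar. A total of 8 genes step down from 2i/LIF or VitC/LIF to F/A, Klf5 stays between 5.25 and 23.2 CPM, and Spic in F/A spreads from 0.85 to 4.18 CPM.

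Per transcript length, the order of the members changed with the medium. In FBS/LIF the highest values were 69.8 and 63.6 FPKM, fragments scaled to transcript length and depth, for Nr0b1 and 47.6 and 59.4 for Esrrb, and Spic was lowest, at 1.22 and 1.26 FPKM. In 2i/LIF Esrrb was highest, at 93.8 and 95.4 FPKM, and Tfcp2l1 followed at 66.2 and 68.8, while Klf5 was lowest, at 9.32 and 12.1 FPKM. In F/A Klf5 was the highest member in both libraries, at 10.1 and 3.76 FPKM. From the medium with the lowest to that with the highest mean CPM, Klf5 spanned 2.17-fold. Spic spanned 54.1-fold, Tfcp2l1 56.3-fold, Nr5a2 365-fold and Prdm14, the widest, 637-fold. The lowest level of Nr5a2 rested on 9 fragments in F/A, and that of Prdm14 on 1.

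In 2i/LIF 8 of the 10 members rose above FBS/LIF and none fell, where 12.5% of all tested genes were higher and 17.9% lower by the same rule (adjusted p under 0.05). The largest increases were those of Spic, 11.6-fold (log2 fold change 3.54, SE 0.61, adjusted p = 0.0027), Tbx3, 7.78-fold (2.96, SE 0.26, adjusted p = 6.7e-05), Tfcp2l1, 5.06-fold (2.34, SE 0.28, adjusted p = 0.00034), and Prdm14, 4.78-fold (2.26, SE 0.24, adjusted p = 0.0002). Klf4 rose 2.47-fold and Nr5a2 2.15-fold, and Klf2 (1.79-fold) and Esrrb (1.77-fold, adjusted p = 0.014) rose least. Without FBS/LIF replicate 1 or without 2i/LIF replicate 2, the Esrrb call was lost (log2 fold changes 0.66 and 0.75, adjusted p = 0.0968 and 0.0822). Nr0b1 (log2 fold change -0.07, SE 0.10, adjusted p = 0.69) and Klf5 (-0.04, SE 0.47, adjusted p = 0.96) did not pass. The median log2 fold change of the members was 1.21, against -0.04 over all tested genes. Markers of other cell types moved as well: 4 of 8 primitive endoderm markers fell in 2i/LIF (median -2.45; sums of 2.60 and 2.97 CPM against 12.0 and 22.9), and of 7 tested fibroblast markers 4 fell and 1 rose (median -2.11; 6.99 and 5.89 CPM against 11.1 and 9.66). Their part in the members' values was not tested.

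In VitC/LIF 9 of the 10 members were not called against FBS/LIF. Tbx3 alone was called, 2.91-fold above FBS/LIF (log2 fold change 1.54, SE 0.25, adjusted p = 0.035), in a comparison in which 0.362% of all tested genes were called higher. Both VitC/LIF libraries, at 50.0 and 67.3 CPM, lay above both FBS/LIF libraries, at 16.6 and 23.8. On unique hits, the fragments that fit no other gene, the adjusted p was 0.0055, and with the median effective length it was 0.0751. The call did not hold when any 1 library of FBS/LIF, VitC/LIF, 2i/LIF or L-Pro/LIF was left out, with adjusted p between 0.0506 and 0.256 and log2 fold changes from 1.31 to 1.82. Prdm14 (log2 fold change 0.74, SE 0.24, adjusted p = 0.25) and Tfcp2l1 (0.64, SE 0.26, adjusted p = 0.41) came next. Prdm14 passed without F/A replicate 1 (adjusted p = 0.0463) or replicate 2 (0.0451). The members' median was 0.33, against -0.01 over all tested genes.

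With L-proline 8 members fell below FBS/LIF and none rose, where 10.3% of all tested genes were lower and 13.7% higher. On unique hits the 8 stood at 5.34% (Nr0b1) to 15.5% (Tbx3) of their FBS/LIF level. Nr0b1 fell 18.8-fold (log2 fold change -4.23, SE 0.12, adjusted p = 1.4e-06), Nr5a2 12.4-fold (-3.63, SE 0.19, adjusted p = 1.1e-05) and Klf2 7.68-fold (-2.94, SE 0.13, adjusted p = 5.3e-06). Klf5 (-1.11, SE 0.48, adjusted p = 0.13) and Spic (-2.17, SE 0.70, adjusted p = 0.055) missed the threshold. Klf5 passed it without the filter on low counts (-1.15, adjusted p = 0.0345), under which all 10 members were lower. Spic passed it on unique hits (log2 fold change -2.29, adjusted p = 0.031), with 4 and 8 unique hits in L-Pro/LIF against 26 and 28 in FBS/LIF. It also passed when F/A replicate 1 or replicate 2 was left out of the fit (-2.17, adjusted p = 0.0039 for both). The members' median was -2.98, against 0.01 over all tested genes. Fibroblast markers summed to 31.6 and 35.0 CPM in L-Pro/LIF and to 11.1 and 9.66 CPM in FBS/LIF. Of these sums Fbn1 alone held 16.6 and 18.4 CPM in L-Pro/LIF and 7.26 and 6.19 CPM in FBS/LIF. In each FBS/LIF library 2 of the 9 markers were at 0, and 6 of the 7 tested markers rose in L-Pro/LIF. Their part in the fall of the members was not tested.

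In F/A the same number, 8 members, fell below FBS/LIF and none rose, where 22% of all tested genes were lower and 24.4% higher. Nr0b1 fell 252-fold (log2 fold change -7.98, SE 0.17, adjusted p = 8.2e-08), Nr5a2 138-fold (-7.11, SE 0.26, adjusted p = 5.2e-07), Esrrb 136-fold (-7.09, SE 0.28, adjusted p = 7.3e-07) and Klf2 59.6-fold (-5.90, SE 0.16, adjusted p = 1.3e-07). Nr5a2 rests on 1 and 8 fragments in F/A, and its value was -6.79 without F/A replicate 1 and -8.48 without replicate 2. Prdm14, with 1 fragment over both F/A libraries against 363 in FBS/LIF, was 236-fold lower, with a 95% counting interval from 42.0 to 9330. Tbx3 fell 16.3-fold (log2 fold change -4.03), and its value was -4.94 with its median effective length, in place of the deposited effective lengths, which ranged from 1573 to 4666 bases over the libraries. Tfcp2l1 fell 11.4-fold, which left Tfcp2l1 at 8.78% of its FBS/LIF level on unique hits, the highest share among the 8 that fell. Klf5 (log2 fold change -0.98, SE 0.49, adjusted p = 0.13) and Spic (0.57, SE 0.63, adjusted p = 0.48) did not pass.

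Both uncalled genes turned on 1 library. Without F/A replicate 1 Klf5 passed (log2 fold change -1.75, adjusted p = 0.033), and without F/A replicate 2 Spic did (1.35, adjusted p = 0.02), while without F/A replicate 1 Spic turned to the other direction (-0.86, adjusted p = 0.149). F/A replicate 1, the shallowest library, had the higher value of both genes. It also had the higher sum of primitive endoderm markers, 122 against 82.6 CPM in F/A replicate 2, while the other 8 media libraries held 2.6 to 22.9 CPM. Of the 8 primitive endoderm markers 6 rose in F/A against FBS/LIF. Fibroblast markers summed to 38.4 and 28.5 CPM in F/A, of which Fbn1 alone held 22.3 and 16.8 CPM. Macrophage markers, relevant because Spic is a macrophage factor, summed to 2.66 and 1.1 CPM in F/A and to at most 1.98 CPM in the other media, with 2 and 3 of the 6 markers at 0 in F/A. Of 5 tested trophectoderm markers 1 rose and 2 fell in F/A (median 0.62), and their sum, 18.4 and 14.3 CPM against 65.3 and 76.5 in FBS/LIF, was mostly Tfap2c in FBS/LIF (58.7 and 70.5 CPM). Of 5 germ cell markers 4 fell and none rose. The part of these cell types in the members' values was not tested.

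**Figure D2:**
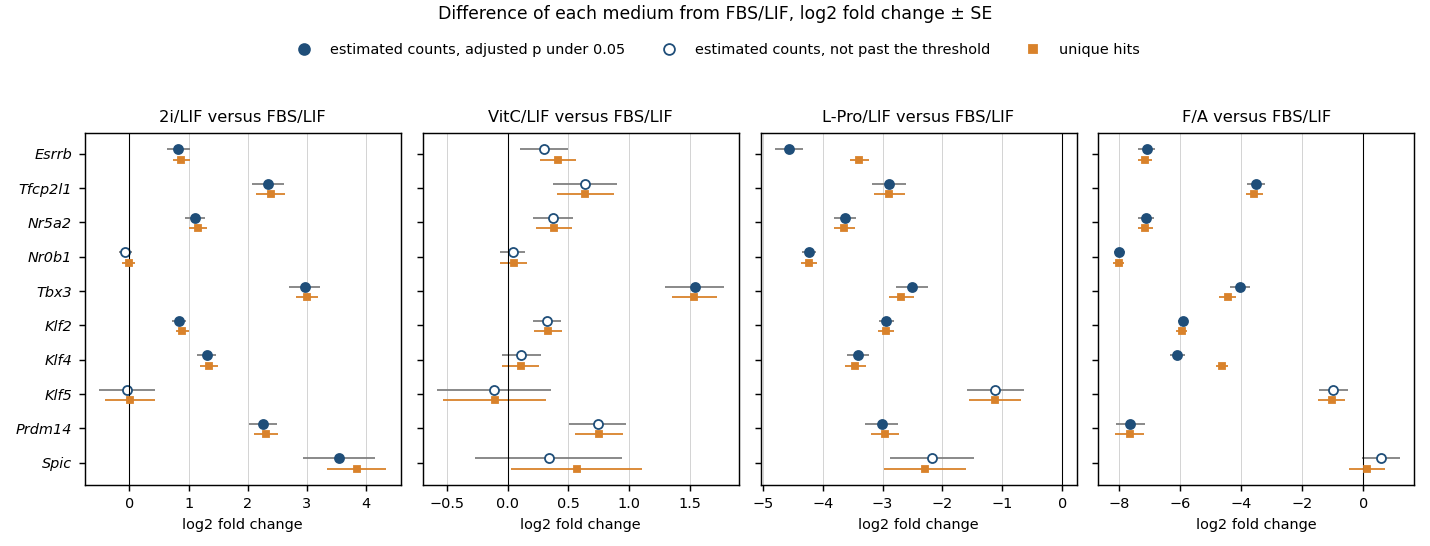
Log2 fold change ± SE of each gene against FBS/LIF, a panel per medium with its own x axis, from estimated counts (circles, filled where the adjusted p was under 0.05) and from unique hits (squares). Estimates and unique hits part visibly for Esrrb in L-Pro/LIF (-4.57 and -3.39) and for Klf4 in F/A (-6.08 and -4.62).

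Esrrb in L-Pro/LIF and Klf4 in F/A carried estimated counts far below their unique hits, although an estimate should hold the unique fragments too. Esrrb had estimates of 126 and 201 in L-Pro/LIF against 319 and 429 unique hits, beside effective lengths of 1142 and 1310 bases, while every other library had 2293 to 3922 bases. Klf4 had estimates of 9 and 12 in F/A against 24 and 36 unique hits, beside 801 and 839 bases, where the other libraries had 2676 to 2831. VitC/LIF replicate 1 showed the same for Esrrb to a lesser degree, with 3072 estimated against 3691 unique fragments. On unique hits Esrrb fell 10.5-fold with L-proline (log2 fold change -3.39, SE 0.16, adjusted p = 9e-07) in place of 23.7-fold (-4.57), and with the gene's median length over libraries the value was -3.33. Klf4 fell 24.6-fold in F/A on unique hits (-4.62, SE 0.21, adjusted p = 1.5e-07) in place of 67.9-fold (-6.08), and fell by 4.35 on the log2 scale with the median length. Both genes passed the threshold either way. Spic had fewer unique hits than its estimate in F/A, 23 and 10 against 33 and 17.

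**Figure D3:**
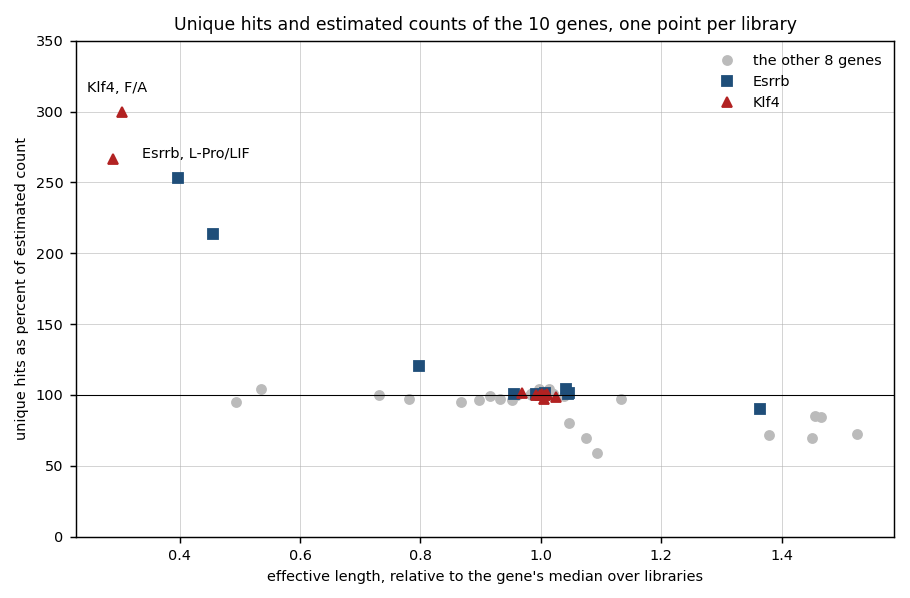
Unique hits as a percent of the estimated count (y axis) against the effective length relative to the gene's median over libraries (x axis), a point per gene and library with an estimate above 0. Esrrb in L-Pro/LIF (253% and 213%) and Klf4 in F/A (267% and 300%) stand highest, at the shortest relative lengths.

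Set directly against L-Pro/LIF, F/A showed 7 members lower and 1 higher, where 10.9% and 11.1% of all tested genes were lower and higher. Nr0b1 was 13.4-fold lower (log2 fold change -3.75, SE 0.17, adjusted p = 7.8e-06), Nr5a2 11.1-fold (-3.48, SE 0.29, adjusted p = 0.00023, from -4.84 to -3.15 with 1 library left out), Klf2 7.77-fold (-2.96, SE 0.16, adjusted p = 1.7e-05) and Tbx3 2.87-fold (-1.52, SE 0.34, adjusted p = 0.017, and -2.35 with the median length). Esrrb was 5.74-fold lower from estimates and 13.5-fold lower on unique hits (adjusted p = 5.9e-06). Klf4 was 6.38-fold lower from estimates, 2.23-fold on unique hits (log2 fold change -1.16, adjusted p = 0.0053) and had a log2 fold change of -0.89 with the median length (adjusted p = 0.0291), and with limma on log2(FPKM + 1) the difference was -0.37 (adjusted p = 0.162). Prdm14 was 29.0-fold lower, with a counting interval from 4.97 to 1169. Spic was the member called higher, 6.7-fold (log2 fold change 2.74, SE 0.72, adjusted p = 0.031). Without F/A replicate 1 its value was 1.31 (adjusted p = 0.12), and the call was also lost without either L-Pro/LIF library (adjusted p = 0.163 and 0.0856) or 2i/LIF replicate 1 (0.05). Tfcp2l1 (-0.62, SE 0.28, adjusted p = 0.14) and Klf5 (0.14, SE 0.49, adjusted p = 0.86, from -0.63 to 0.61 with 1 library left out) did not pass, but Tfcp2l1 did without F/A replicate 1 (-1.10, adjusted p = 0.0273). The Tbx3 call was lost without F/A replicate 2 (-1.19, adjusted p = 0.066) or L-Pro/LIF replicate 2 (-1.27, adjusted p = 0.0788). When the fit used the libraries of these 2 media alone, 5 members were called, each lower.

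The comparisons against VitC/LIF and 2i/LIF share libraries with those above. Below VitC/LIF, 9 members fell in L-Pro/LIF (13% of all tested genes were lower) and 8 in F/A (23.7%). Below 2i/LIF, 9 fell in L-Pro/LIF (19.3%), and F/A had 9 lower as well (26.4%). Klf5 was the member without a call in each of these 4 comparisons, joined by Spic in F/A against VitC/LIF (log2 fold change 0.24, SE 0.62, adjusted p = 0.77; -0.45 on unique hits and from -1.19 to 1.01 with 1 library left out). Without F/A replicate 1 Klf5 was called in F/A against both, at -1.76 below 2i/LIF and -1.64 below VitC/LIF, and without F/A replicate 1 or replicate 2 it was called in L-Pro/LIF against 2i/LIF (-1.13 and -1.12). The call of Spic in L-Pro/LIF against VitC/LIF (-2.51, adjusted p = 0.026) was lost without any 1 library of these 2 media (adjusted p between 0.0549 and 0.127). From 2i/LIF to F/A Nr5a2 fell 298-fold (-8.22, SE 0.27, adjusted p = 1.3e-07) and Spic 7.82-fold (-2.97, SE 0.61, adjusted p = 0.0033). Without F/A replicate 1 these were -7.95 and -4.45, and without F/A replicate 2 they were -9.63 and -2.25, and Spic fell 13.2-fold on unique hits. From 2i/LIF to L-Pro/LIF Spic fell 52.4-fold (-5.71, SE 0.71, adjusted p = 0.00024), with a value of -6.51 with the median length. Against VitC/LIF, 2i/LIF was higher for 7 members (9.62% of all tested genes were higher), with Spic 9.22-fold, Tfcp2l1 3.26-fold and Tbx3 2.68-fold higher. Esrrb was not called there (0.53, SE 0.20, adjusted p = 0.087), but was on unique hits (0.46, adjusted p = 0.04). The Nr5a2 and Klf2 calls were lost without either VitC/LIF library or 2i/LIF replicate 2.

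Genes around the network were taken from lists chosen for their role, and genes named here beyond the rule for lists were named after their values were seen. Shares of all tested genes called against FBS/LIF were 13.7% higher and 10.3% lower in L-Pro/LIF, and 12.5% and 17.9% in 2i/LIF. In F/A these shares were 24.4% and 22%, and in VitC/LIF 108 of 16033 genes were called in either direction. All 13 other naive genes fell under L-proline (median log2 fold change -2.60) and in F/A (-5.29). In 2i/LIF 8 of them rose and 4 fell, the latter Dppa3 (-2.57), Gbx2 (-0.94), Dppa4 (-0.71) and Dppa2 (-0.70), and in VitC/LIF Pecam1 alone rose (0.70). In F/A Dppa5a fell by 9.01 and Zfp42 (Rex1) by 8.05 on the log2 scale. Of the 8 core partners, factors that work with Oct4 in both states, 5 fell in L-Pro/LIF (Pou5f1, Sox2, Nanog, Zfp281 and Rest, from -0.43 to -1.27) and the same 5 fell in F/A, with Sox2 at -3.45 and Pou5f1 at -0.86. In 2i/LIF Nanog rose (1.45) and Zfp281 fell (-0.45). The core partners had a median of -0.55 in L-Pro/LIF, and F/A gave -0.82.

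Of 8 genes of the LIF and STAT3 input, 4 fell in L-Pro/LIF (Lifr -1.82, Bcl3 -1.75, the feedback inhibitor Socs3 -1.18 and Stat3 -0.71) and Il6st rose (0.74). In F/A 6 fell (median of the list -1.51), with Bcl3 at -4.71 and Socs3 at -2.78, and Il6st (1.61) and Jak1 (0.70) rose. In 2i/LIF 2 fell, Pim3 (-1.12) and Pim1 (-0.75), and Il6st rose (0.49). Of 8 ERK feedback genes 6 fell in 2i/LIF, led by the phosphatase gene Dusp4 (-4.11) and Spry4 (-3.53), and Etv5 rose (0.83). In L-Pro/LIF Spry4 (-1.42), Etv4 (-1.11) and Spred1 (-0.42) fell and Dusp4 (1.64) and Dusp6 (0.46) rose. In F/A Spry4 (-1.32), Spry2 (-0.67) and Etv5 (-0.63) fell and Dusp4 (2.30), Egr1 (1.84) and Dusp6 (0.99) rose. The β-catenin and TCF targets Axin2 and Sp5 rose in 2i/LIF (3.47 and 3.44) and were the only 2 of 8 on their list to do so. They also rose in L-Pro/LIF (1.85 and 4.04) and F/A (3.14 and 4.502), where the list had 2 and 5 genes higher and none lower.

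Of the 5 genes listed as repressed by PRDM14, 4 fell in 2i/LIF, where Prdm14 rose: Fgfr2 (-3.21), Dnmt3a (-2.77), Dnmt3b (-2.27) and Dnmt3l (-1.51). In F/A, where Prdm14 was nearly undetected, 3 of the 5 fell as well, Dnmt3l from 304 ± 3.95 to 0.454 ± 0.0758 CPM (SD, n = 2), Dnmt3a (-0.85) and Fgfr2 (-0.69), while Fgfr1 rose (2.03). In L-Pro/LIF Dnmt3l fell (-2.68) and Dnmt3b rose (0.58), and in VitC/LIF Dnmt3l alone fell (-0.93). The listed partner of PRDM14, Cbfa2t2, fell under L-proline (-1.13) and in F/A (-0.91). Of 26 paralogs of the members, 20 were tested. In L-Pro/LIF 5 of the 20 fell, led by Klf8 (-1.17) and Klf3 (-1.11), and Klf6 rose (1.16). In 2i/LIF 4 rose, led by Klf8 (1.58) and Klf15 (1.39), and 4 fell, and in F/A 9 fell and 5 rose. The shares of all tested genes, given above, were 13.7% higher and 10.3% lower in L-Pro/LIF, 12.5% and 17.9% in 2i/LIF, and 24.4% and 22% in F/A. Median changes of the paralogs in L-Pro/LIF, 2i/LIF and F/A were -0.15, -0.10 and -0.44, against 0.01, -0.04 and 0.05 over all tested genes. Klf9 fell in L-Pro/LIF (-1.02) and F/A (-1.79). Of 8 primed factors 6 rose and 2 fell in both L-Pro/LIF and F/A, the latter Foxd3 (-0.52 and -1.22) and Utf1 (-0.91 and -1.30), with Fgf5 higher by 4.15 and 5.10 and Sox3 by 3.03 and 3.60, and in 2i/LIF 6 fell and 1, Foxd3, rose (0.65).

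The single raw count libraries allow no test. In ratios to t0, the vitamin C stated for t0 cannot be told apart from day or treatment. Ratios come with 95% counting intervals, which leave out the spread between cultures, and a ratio of at least 2-fold was counted. All 10 members were at least 2-fold below t0 at F/A day 3 and at F/A day 5, where 13.6% and 16.7% of genes with at least 1 CPM in either library were, and 9 were at L-Pro day 5, where 15.8% were. Esrrb went from 22030 counts at t0 to 408 at F/A day 3 and 54 at F/A day 5, and stood at 925 at L-Pro day 5. That was 59.0-fold (53.5 to 65.2), 407-fold (312 to 542) and 28.1-fold (26.4 to 30.1) below t0. Nr0b1 had 3980, 66, 4 and 109 counts in the same order and Nr5a2 2364, 106, 8 and 126. Tbx3 had 6978, 57, 20 and 92 counts, and Prdm14 715, 4, 4 and 9. Spic had 58 counts at t0, 4 and 3 in F/A and 0 at L-Pro day 5. With the 0 taken as a floor of 3 counts, Spic was 22.8-fold below t0 there. The counting interval from the 0 counts reached down to 18.0-fold.

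Between day 3 and day 5 of F/A the members divided. Esrrb (6.91-fold, 5.19 to 9.35), Nr5a2 (12.1-fold, 5.93 to 28.8), Nr0b1 (15.1-fold, 5.62 to 57.0) and Tbx3 (2.61-fold, 1.54 to 4.58) were lower at day 5, 4 of 10 members against 9.87% of genes. Klf4, from 112 to 907 counts, was 8.86-fold higher (7.27 to 10.9) and Klf5, from 441 to 1152, was 2.86-fold higher (2.56 to 3.20), 2 of 10 against 9.73%. Tfcp2l1 (327 and 425 counts, ratio 1.42, 1.23 to 1.65) and Klf2 (208 and 250, ratio 1.31, 1.09 to 1.59) were slightly higher. In the authors' deposited table of scaled counts Klf4 stood at 8155 at t0, 115 at F/A day 3 and 942 at F/A day 5. Primitive endoderm markers summed to 5.34 CPM at t0, 15.0 at F/A day 3 and 66.9 at F/A day 5, with none of the 8 at 0. Fibroblast markers summed to 31.3 CPM at t0, 37.0 at F/A day 3 and 31.9 at F/A day 5. The part of both marker lists in the Klf4 and Klf5 values was not tested.

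At day 5, 5 members were at least 2-fold lower in F/A than with L-proline (7.77% of genes were): Esrrb, Tfcp2l1, Nr5a2, Nr0b1 and Tbx3. Klf2 (ratio 0.881, 0.745 to 1.04), Klf4 (ratio 1.07, 0.976 to 1.17) and Prdm14 (ratio 0.526, 0.118 to 1.89) did not differ beyond counting error. Prdm14 had 4 counts in F/A and 9 with L-proline, and Spic, with 3 and 0, was given no ratio. In F/A Klf5 was 1.8-fold lower. Klf5 kept the highest share of its t0 level, 1.5-fold lower at L-Pro day 5 (2449 counts against 3109, before scaling) and 2.69-fold lower at F/A day 5. The L-Pro day 5 library had the highest sum of fibroblast markers in the study, 91.2 CPM, of which Fbn1 held 39.4 CPM. The part of the fibroblast markers in the members' values was not tested.

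**Figure D4:**
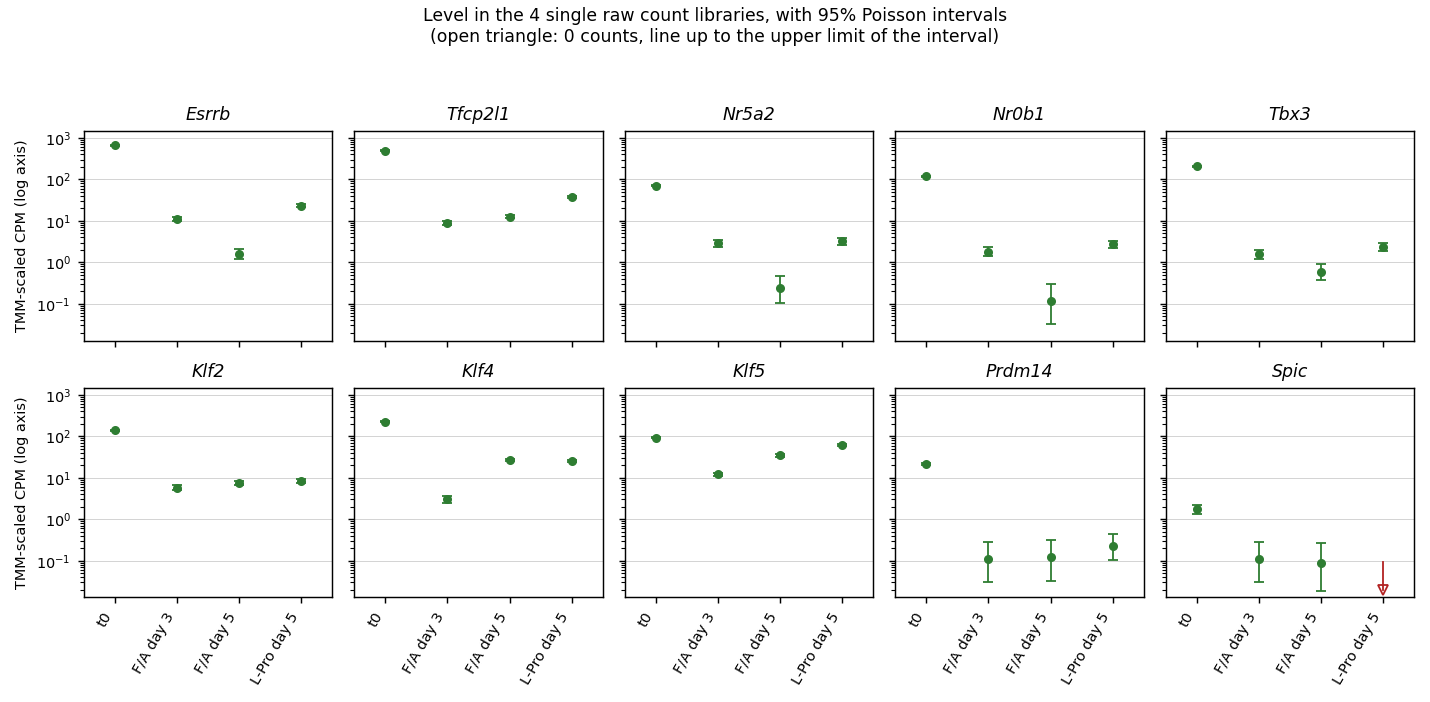
TMM-scaled CPM (log axis) of each gene in the 4 single raw count libraries, with 95% Poisson intervals that cover counting error only. Klf4 rises from 3.08 CPM at F/A day 3 to 27.2 CPM at F/A day 5, while Esrrb falls from 11.2 to 1.62 CPM.

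Likeness of pattern was measured by Pearson's r of log2 CPM over the 10 media libraries, which mostly reflects the differences between media, with 2 libraries each and the same scaling for all genes, and is given as a description. The 8 members other than Klf5 and Spic had r between 0.894 and 0.995 with each other, Klf2 and Nr5a2 being the closest pair (0.995). Klf5 reached 0.66 to 0.77 with these 8, and Spic 0.37 to 0.74, with its lowest value against Nr0b1. Among the 8354 named genes compared, the closest non-member was Mybl2 for Esrrb (0.997), Mks1 for Tfcp2l1 (0.994), Trap1a for Nr5a2 (0.998), Rnf17 for Nr0b1 (0.998), Gcnt2 for Tbx3 (0.995), Fbxo15 for Klf2 (0.999), Ngfr for Klf4 (0.996), Itpk1 for Prdm14 (0.996), Pik3r4 for Klf5 (0.961) and Zfp654 for Spic (0.98). The genes closest to the mean of the members were Pias2, Tet2, H2-M5, Jam2 and Lrrc34, with r from 0.9903 to 0.998. Zfp654 was higher in F/A replicate 1 than in replicate 2, at 46.4 and 27.2 CPM, as Spic was by a larger ratio, and Fbxo15 repeated the steps of Klf2, at 139 and 129 CPM in 2i/LIF, 14.3 and 12.7 in L-Pro/LIF, and 2.79 and 2.55 in F/A.

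**Figure D5:**
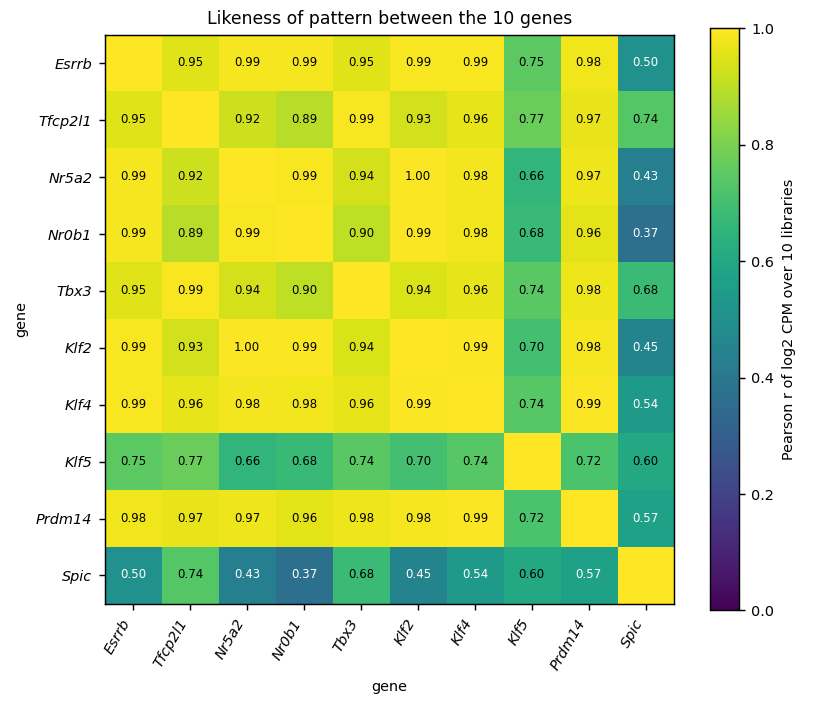
Pearson's r between the log2 CPM of each pair of the 10 genes over the 10 media libraries, as a colour from 0 to 1 and as a number. The rows of Klf5 and Spic stand apart from the other 8, whose values lie between 0.894 and 0.995.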

How the data were processed

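RNA was sequenced from 14 libraries of mouse ESCs. For the media libraries the authors deposited, per the file headers, the natural log of FPKM of each gene, its effective length in bases and its unique hits as whole-number counts. These values carry the name mmseq in their deposit. Whether reads were counted by strand is not given in the sources used here. For the other 4 libraries the authors deposited raw counts per gene; CASAVA, TopHat2 2.0.13, Bowtie, HTSeq 0.6.1p1, DESeq and the build mm9 (NCBIM37) are named in the submitters' processing notes, without roles. A further deposited table holds counts scaled by the authors in an unstated way, treated as a score.

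Estimated counts were computed as FPKM times effective length times mapped fragments, rounded, and summed to 98.7% to 99.5% of the mapped fragments. They were filtered with filterByExpr, scaled by TMM and tested with edgeR 4.0.16 (R 4.3.3) by the quasi-likelihood F test in 1 model of all 10 libraries, with Benjamini-Hochberg adjustment over 16033 genes and a threshold of 0.05. SE is the absolute log2 fold change divided by the square root of F. The common biological coefficient of variation was 0.238, with 5 residual degrees of freedom. The fit was tested on simulated data. Alternatives were DESeq2 1.42.0, limma 3.58.1 on log2(FPKM + 1) and log2(FPKM + 0.1), other scalings and filters, unique hits, the 2 media alone, a replicate block, each library left out and, chosen after seeing the data, the gene's median effective length. Raw count libraries were compared by TMM-scaled CPM over genes with at least 1 CPM in either library. Poisson intervals and exact conditional binomial intervals of ratios are at 95%, and intervals and floors cover counting error only.

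The members and gene lists were chosen with earlier results of these data known. From each list, up to 3 called genes with the largest absolute log2 fold change could be named, and all core partners. Likeness was measured over named genes whose mean log2 CPM reached 4 in their highest medium (prior count 2). A total of 2 columns were not used because the name joins 2 samples. Symbols came from GENCODE vM21, which is on another build than the files, so no gene coordinates are given. Promoter sequences and their coordinates are RefSeq's on GRCm38.p6.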

Additional observations from a re-analysis of the deposited data

Results flagged for a closer look

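Klf4 at day 5 of F/A against L-proline differed between the experiments. In the media libraries it was lower in F/A in both libraries, by 2.67 on the log2 scale from estimated counts (log2 fold change -2.67) and by 1.16 on unique hits (-1.16). The estimated counts of Klf4 in F/A lie below its unique hits; with the median effective length the value was -0.89 (adjusted p = 0.0291), and limma did not call it on log2(FPKM + 0.1) (-0.61, adjusted p = 0.118) or log2(FPKM + 1) (-0.37, adjusted p = 0.162). In the raw count libraries the log2 ratio was 0.0956, with a ratio of 1.07 and a counting interval from 0.976 to 1.17. The difference between the experiments was not tested. The L-proline dose of the media libraries is not stated, and extraction, counting and the selection of reporter-positive cells cannot be told apart from the experiment.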

How the results depend on the processing

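No called log2 fold change of a member changed sign under any alternative, but 19 values of results without a call did, for Spic, Klf5 and Nr0b1. Spic in F/A against VitC/LIF (0.24) became -0.45 on unique hits, -0.19 with the median length and -0.10 with limma on log2(FPKM + 0.1), and -1.19 to 1.01 with a library left out. Spic in F/A against FBS/LIF (0.57) ranged from -0.86 to 1.35 with a library left out. Klf5 ranged from -0.51 to 0.45 (VitC/LIF against FBS/LIF), -0.45 to 0.51 (2i/LIF against FBS/LIF; 0.0096 on unique hits), -0.63 to 0.61 (F/A against L-Pro/LIF) and -0.21 to 0.40 (2i/LIF against VitC/LIF), and Nr0b1 from -0.020 to 0.11 (VitC/LIF against FBS/LIF). In VitC/LIF against FBS/LIF the 1 member called became 2 with DESeq2, and 0 with limma at either pseudocount, with only the 2 media in the fit and with the median effective length, and 0 to 2 with a library left out. The count of 8 in F/A against L-Pro/LIF became 5 with only the 2 media, and 6 to 8 with a library left out. With a library left out the other counts ranged from 8 to 9 (L-Pro/LIF or F/A against FBS/LIF or VitC/LIF), 7 to 8 (2i/LIF against FBS/LIF), 5 to 7 (2i/LIF against VitC/LIF) and 9 to 10 (F/A or L-Pro/LIF against 2i/LIF). Of 1000 values of single members with a library left out, 948 kept direction and side of the threshold, 15 changed sign without a call, 26 lost the call and 11 gained it. Of 100 such values per setting, direction and side were kept by 96 with DESeq2, 95 without a filter (which called all 10 members in L-Pro/LIF against FBS/LIF), 94 with only the 2 media, 96 and 95 with limma at pseudocounts of 1 and 0.1, 96 on unique hits and 97 with the median length.

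With the replicate block, 8 members were called in F/A against L-Pro/LIF, 1 in VitC/LIF against FBS/LIF and 8 in 2i/LIF against VitC/LIF, where Esrrb was gained (adjusted p = 0.0204), and 99 of the 100 values kept their side. Same-numbered libraries correlated in their deviations from the group means by 0.098 to 0.518, below the threshold of 0.1 for 1 pair of media. By that rule the numbers were not taken to pair them. The common biological coefficient of variation was 0.189 with the block, against 0.238 without it.

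Over all tested genes, the 108 calls in VitC/LIF against FBS/LIF became 435 with DESeq2, 263 without a filter, 243 on unique hits, 62 with limma on log2(FPKM + 0.1) and 61 with only the 2 media, and 6 to 250 with a library left out. The 3529 calls in F/A against L-Pro/LIF became 729 with only the 2 media and 752 to 6296 with a library left out, and the 7440 in F/A against FBS/LIF became 4470 and 4345 to 8464. With a library left out, the lowest counts were 2932 of 4867 (2i/LIF against FBS/LIF), 2150 of 3935 (2i/LIF against VitC/LIF), 2002 of 3853 (L-Pro/LIF against FBS/LIF), 2860 of 4780 (L-Pro/LIF against VitC/LIF) and 5239 of 8100 (F/A against VitC/LIF). The cause was not tested. Where a medium is left with 1 library, that library is assumed to vary like the others. F/A replicate 1 had the lowest depth of the media libraries. Prdm14, Nr5a2 and Nr0b1 had 1, 1 and 3 fragments there, and 0, 8 and 9 in F/A replicate 2. In the raw count libraries all 48 ratios computed stayed within their counting interval under both other scalings, and so did the 30 that the authors' scaled counts allow.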
